A study of Mus musculus with 8 samples.

Results

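Cyclic nucleotide phosphodiesterases break down cAMP and cGMP, the second messengers through which adrenergic signals, nitric oxide and natriuretic peptides act on the heart. Separate genes encode enzymes that differ in substrate, in their response to calcium and cGMP, and in their place within the cell, so that cAMP and cGMP are cleared in small compartments around calcium channels, the sarcoplasmic reticulum and the contractile filaments. The 10 genes described here are Pde1a, Pde1c, Pde2a, Pde3a, Pde4a, Pde4b, Pde4d, Pde5a, Pde8a and Pde11a, taken by symbol from a table of 17190 genes. All 10 were found and all 10 passed the filter on low counts. Pde11a entered the list because an earlier run of DESeq2 on this same comparison had called it. The genotype values of the members are therefore given as a description, and no test is drawn from them.

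The hearts came from 2 groups of male mice kept on standard chow: Gpihbp1-/- mice, with hearts numbered 1, 2, 3 and 4, and wild-type mice, with hearts numbered 2, 4, 5 and 6. Gpihbp1 encodes the protein of capillary endothelium that moves lipoprotein lipase to its site of action in the vessel. The labels name the mutant by genotype alone and give no strain, age, littermates or collection batch, so spread between hearts is the only error measured. Polyadenylated RNA of heart tissue was sequenced. In such bulk tissue, fewer cells of a type and less RNA per cell cannot be told apart.

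Gpihbp1 matched the genotype label of every heart, with 1 read summed over the Gpihbp1-/- hearts and 5675 summed over the wild-type hearts. Library totals ran from 9065553 to 13492957 counts. In all 8 hearts the 8 cardiomyocyte markers were each at 1 CPM or more (CPM here means counts scaled to library size with TMM), while the 4 adipocyte markers together summed to at most 1.97 CPM. Gpihbp1-/- heart 2 and wild-type heart 2 stood apart: the summed CPM of 7 fibroblast markers was 11090 and 9052 in them, against 894 to 1135 in the other 6 hearts, and that of 6 macrophage markers was 1007 and 1439, against 173 to 369. The fibroblast sum was carried by Col1a1, Col1a2, Col3a1 and Postn. Dcn, by contrast, was 536 and 744 CPM in these hearts, against 516 to 636 CPM in the other 6. For Pdgfra the values were 56 and 79.8 CPM, against 26.1 to 42.9 CPM, and for Tcf21 12.5 and 21.3 CPM, against 7.45 to 11.8 CPM. Wild-type heart 6 also stood apart, with Myl4, a myosin light chain of the atria, at 974 CPM and at most 2.45 CPM in every other heart. The atrial markers Myl7 and Sln were 427 and 356 CPM in it, and at most 0.49 and 0.20 CPM in every other heart. Nppa was 3262 CPM in it, but also 4467 and 3132 CPM in Gpihbp1-/- heart 2 and wild-type heart 2. How much atrial tissue each sample held was not tested, so member levels are not shown to be those of whole hearts. Results are given with all hearts, and log2 fold changes of named genes also without hearts 2 where that moved them by over 1.5 times.

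Pde11a encodes an enzyme that hydrolyses both cAMP and cGMP and carries regulatory GAF domains, as do the products of Pde2a and Pde5a; it is best known from the hippocampus and the adrenal cortex. It was the member with the lowest level in the heart and the one whose genotypes stood furthest apart. Because its transcript level is the value that singled it out, its promoter window is printed. The window (RefSeq, GRCm38.p6, chr2:76338889-76339188, minus strand) covers 250 bases before and 50 bases after the annotated start of the gene, and the capitals mark the GC box GGGCGG.

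Pde11a promoter: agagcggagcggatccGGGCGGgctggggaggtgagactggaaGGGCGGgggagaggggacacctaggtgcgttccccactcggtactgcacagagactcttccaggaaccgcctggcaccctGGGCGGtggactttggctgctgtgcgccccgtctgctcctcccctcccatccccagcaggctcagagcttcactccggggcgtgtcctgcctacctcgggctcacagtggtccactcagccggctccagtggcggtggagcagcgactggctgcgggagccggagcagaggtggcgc

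The GC box, searched on both strands, occurred 3 times, beginning at bases 17, 44 and 124 of the window, and 35.7% of 32851 annotated promoter windows of the same length held it at least once. Among 23 member windows 6 held it, in windows of Pde2a, Pde4a, Pde5a, Pde8a and Pde11a. The Pde11a window had 69.3% G and C and 20 CpG dinucleotides, where the medians of all windows were 52.7% and 7. The full cAMP response element TGACGTCA was in 0 of the 23 windows annotated for 9 of the members and in 1.79% of all windows. Its shorter core TGACG was in 5 of the 23, in windows of Pde1a, Pde2a, Pde4a, Pde4b and Pde8a, and in 20.8% of all windows; every full element also holds this core. These are letters in a window, and binding of a factor was not measured.

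Pde11a was read 4, 15, 17 and 9 times in Gpihbp1-/- hearts 1, 2, 3 and 4, against 49, 45, 69 and 28 times in wild-type hearts 2, 4, 5 and 6. Scaled for depth this was 0.354, 0.984, 1.66 and 0.848 CPM in the Gpihbp1-/- hearts and 3.41, 4.28, 6.02 and 3.94 CPM in the wild-type hearts. Every Gpihbp1-/- heart was below every wild-type heart, and the lowest wild-type value was 2.05 times the highest Gpihbp1-/- value. The means were 0.963 ± 0.541 CPM in Gpihbp1-/- hearts and 4.41 ± 1.13 CPM in wild-type hearts (SD, n = 4 each).

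The log2 fold change of Pde11a, Gpihbp1-/- over wild type, was -2.19 with a standard error of 0.46 and a 95% interval from -3.23 to -1.15. These are the values that chose the gene. In edgeR's quasi-likelihood fit over 12826 genes its unadjusted p was 0.000924, 7th in rank, and its adjusted p was 0.99998; DESeq2 gave an adjusted p of 0.00794. With heart number as a block in edgeR, a design the labels do not call for, the adjusted p was 0.0167, so whether Pde11a was called depended on both the tool and the design. Only numbers 2 and 4 occur in both groups, so the genotype estimate with that block rests on the hearts with those numbers. Without hearts 2 of both groups the log2 fold change was -2.32.

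None of the 10 members passed an adjusted p of 0.05 in edgeR, where 0.0312% of all tested genes passed. An unadjusted p under 0.05 was found for 1 of the 10, beside 0.904% of all tested genes. DESeq2 called 1 of the 10, against 0.0641% of the genes it tested. Groups that did not overlap, with Gpihbp1-/- lower, were found for 1 of the 10 members and for 0.366% of tested genes. Pde11a was the member in each of these counts, and since this contrast chose it, nothing is read from them. The other 9 members had 95% intervals that spanned 0, as did 12710 of all 12826 tested genes. Log2 fold changes of these 9 members ran from -0.35 for Pde4a to 0.40 for Pde1c. The median over the 10 members was -0.13, beside -0.02 over all tested genes, with 4 positive and 6 negative. Pde11a, Pde1c and Pde8a kept their sign under every alternative fit, scaling and left-out heart, and the other 7 members did not.

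**Figure D1:**
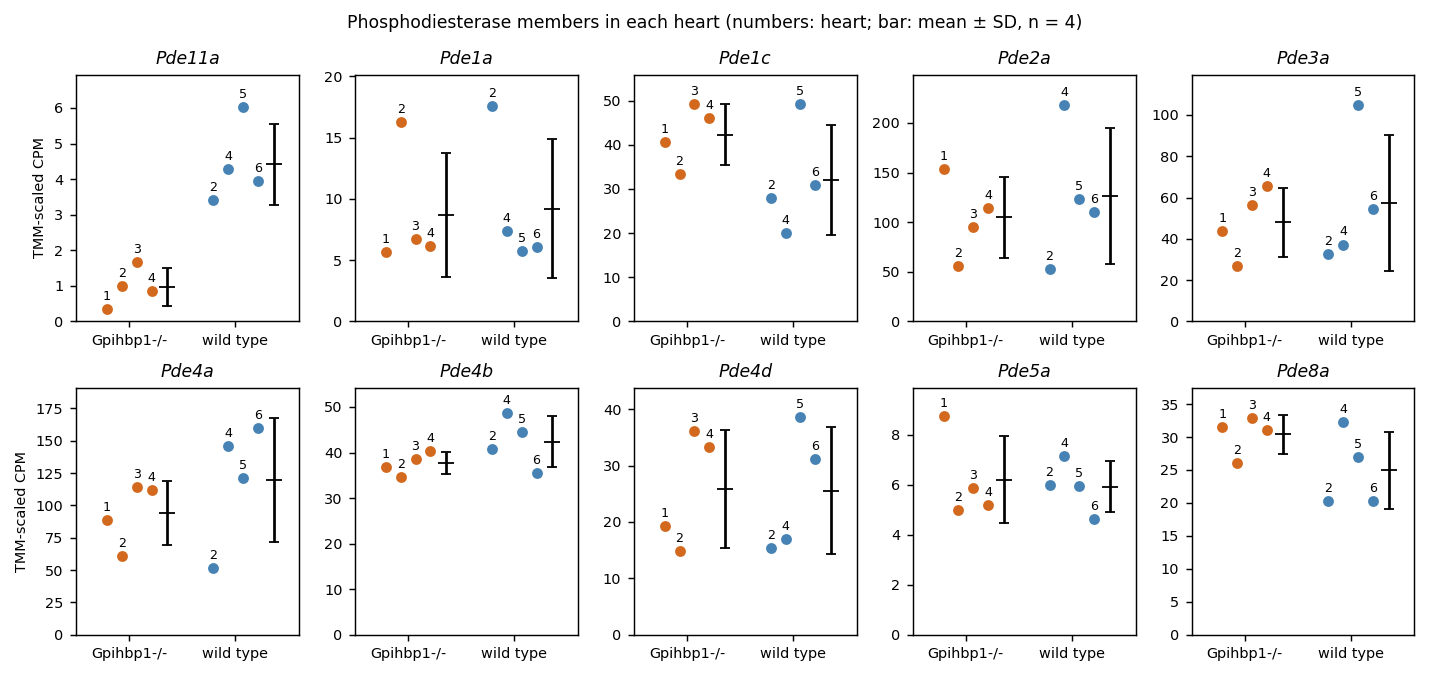
TMM-scaled CPM of the 10 members in each heart, Gpihbp1-/- hearts left (orange) and wild-type hearts right (blue), with heart numbers beside the points and black bars for the mean ± SD (n = 4). The groups are separate for Pde11a, with all Gpihbp1-/- hearts at or below 1.66 CPM and all wild-type hearts at or above 3.41 CPM, and overlap for the other 9 members.

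**Figure D2:**
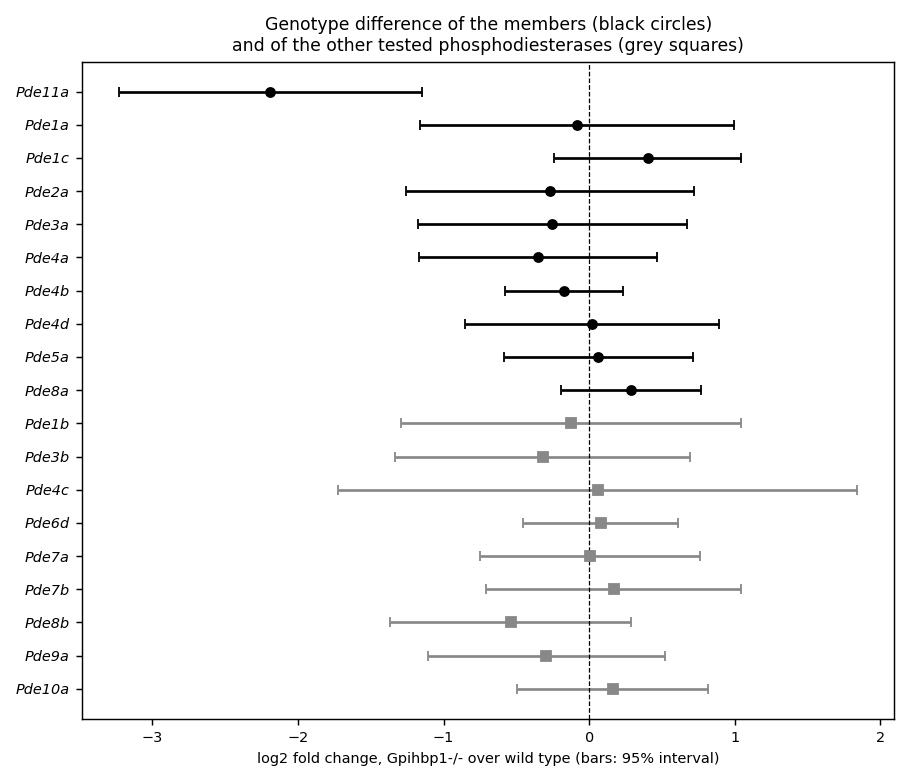
Log2 fold change, Gpihbp1-/- over wild type, with 95% intervals from edgeR's quasi-likelihood fit, for the 10 members (black circles) and the 9 other tested phosphodiesterase genes (grey squares). The interval of Pde11a runs from -3.23 to -1.15, and the intervals of the other 18 genes span 0.

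Levels of different genes were compared per length, as TPM, in which counts are divided by transcript length and scaled to a common library total. Pde2a and Pde4a were the most abundant members, with median TPM over the 8 hearts of 34.3 and 31.9. Together they made up 47.8% to 64.7% of the summed TPM of the members in Gpihbp1-/- hearts and 44.0% to 73.4% in wild-type hearts. Pde2a was above Pde4a in 5 of 8 hearts, so the order of these neighbours is not beyond their spread. By the median of the deposited FPKM values Pde4a came first, but the mean FPKM was higher for Pde2a, at 30.7 against 26.4.

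Pde4b followed at a median of 12.7 TPM, then Pde8a at 10.1, Pde1c at 8.91, Pde3a at 4.79, Pde4d at 3.42, Pde1a at 2.53, Pde5a at 1.12 and Pde11a at 0.25 TPM. The steps from Pde4a to Pde4b, from Pde4b to Pde8a, from Pde1a to Pde5a and from Pde5a to Pde11a held in all 8 hearts. Pde8a was above Pde1c in 6 hearts, Pde1c above Pde3a and Pde3a above Pde4d in 7 each, and Pde4d above Pde1a in 5, so these neighbours changed places between hearts. Wild-type heart 6 had the lowest TPM of 8 of the 10 members, but on the CPM scale it was lowest for 2, Pde5a and Pde8a, and highest for Pde4a.

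Grouped by substrate, the cAMP-selective members Pde4a, Pde4b, Pde4d and Pde8a summed to 58.0 ± 7.89 TPM in Gpihbp1-/- hearts and 56.3 ± 25.1 TPM in wild-type hearts (SD, n = 4 each). The members that take both substrates, Pde1a, Pde1c, Pde2a, Pde3a and Pde11a, summed to 55.0 ± 11.9 and 55.3 ± 32.0 TPM in Gpihbp1-/- and wild-type hearts. Pde5a, which is selective for cGMP, stood at 1.27 ± 0.334 TPM in Gpihbp1-/- hearts and 1.10 ± 0.500 TPM in wild-type hearts. In CPM the direction for the cAMP-selective members turned, at 187.8 ± 39.5 CPM in Gpihbp1-/- hearts and 212.6 ± 56.5 CPM in wild-type hearts, and the members that take both substrates summed to 204.8 ± 49.9 CPM in Gpihbp1-/- hearts and 229.4 ± 73.9 CPM in wild-type hearts (SD, n = 4 each). The differences between the genotype means were smaller than the SD of either group in each class on both scales. Pde11a made up 0.0473% to 0.698% of the summed member TPM, so its difference hardly moves these sums.

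**Figure D3:**
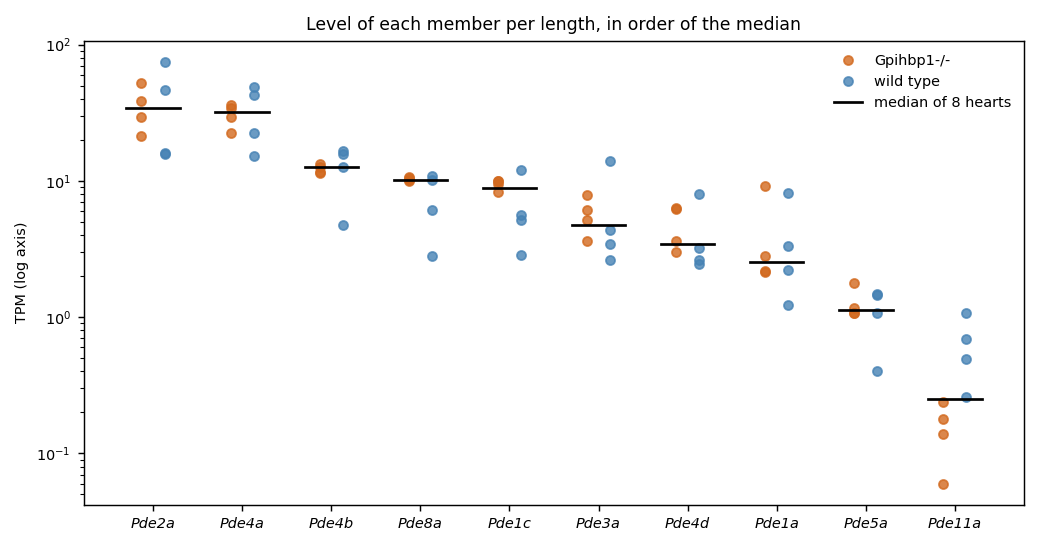
TPM of each member on a log axis, in order of the median over 8 hearts (black line), with Gpihbp1-/- hearts left (orange) and wild-type hearts right (blue) in each column. Medians run from 34.3 TPM for Pde2a to 0.25 TPM for Pde11a, and the genotypes overlap for every member other than Pde11a.

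Pde2a, whose enzyme is stimulated by cGMP binding to its GAF domains and so links cGMP to cAMP breakdown, had the widest spread over the 8 hearts of the members other than Pde11a. It stood at 154, 55.6, 95.3 and 114 CPM in Gpihbp1-/- hearts 1, 2, 3 and 4, against 53.3, 218, 124 and 111 CPM in wild-type hearts 2, 4, 5 and 6. Hearts 2 of both groups were the lowest and wild-type heart 4 the highest. Its log2 difference between genotypes was -0.27 (95% interval -1.26 to 0.72), and 0.14 without wild-type heart 4.

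Pde2a moved with the summed markers of endothelial cells. The summed CPM of the 6 endothelial markers was 1786, 669, 1118 and 1198 in Gpihbp1-/- hearts 1, 2, 3 and 4 and 542, 2217, 1208 and 932 in wild-type hearts 2, 4, 5 and 6. Both the marker sum and Pde2a spanned 4.09-fold from the lowest heart to the highest. Singly, Pecam1, Cdh5, Kdr, Tie1 and Vwf were each highest in wild-type heart 4 and lowest in wild-type heart 2, as Pde2a was. Egfl7 departed from Pde2a: it was 89.0 and 254 CPM in wild-type hearts 5 and 6, where Pde2a was 124 and 111 CPM. As a percentage of the marker sum, Pde2a was 8.62, 8.31, 8.53 and 9.53 in the Gpihbp1-/- hearts and 9.82, 9.83, 10.2 and 11.9 in the wild-type hearts. This percentage spanned 1.43-fold and did not overlap between genotypes. It was computed after the values were seen and was not tested. The same percentage was not computed for other genes, so this separation is not shown to be particular to Pde2a.

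The 6 genes whose profile over the 8 hearts was most like that of Pde2a were Robo4, Phf20l1, Ppp1r16b, Ushbp1, Arhgef15 and Appl2. Likeness was the root mean square difference between standardised log2 CPM profiles among 12432 candidate genes, and it was 0.090 for Robo4 and 0.14 for Appl2. Robo4, a roundabout receptor of endothelial cells, stood at 127, 42.8, 78.2 and 85.6 CPM in Gpihbp1-/- hearts 1, 2, 3 and 4 and 41.7, 179, 89.8 and 82.9 CPM in wild-type hearts 2, 4, 5 and 6. The order of the 8 hearts is the same for Robo4 and Pde2a, from wild-type heart 4 at the top to wild-type heart 2 at the bottom.

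The same measure for Pde11a gave Gpihbp1, Chordc1, Pim2, Sh3bp5l, Pknox1 and Cspg4b, with differences from 0.41 for Gpihbp1 to 0.47 for Cspg4b. By this measure no gene followed Pde11a as closely as Robo4 followed Pde2a. Pde11a had 4 to 69 reads per heart and Pde2a 765 to 2293, so counting noise enters this contrast, and its part was not measured. Pknox1, a homeodomain transcription factor, stood at 13.71, 15.03, 13.51 and 14.13 CPM in Gpihbp1-/- hearts 1, 2, 3 and 4 and 19.6, 20.8, 19.0 and 18.8 CPM in wild-type hearts 2, 4, 5 and 6. Its log2 fold change was -0.47 (edgeR adjusted p = 0.99998), far smaller than that of Pde11a. A likeness to Pde11a here partly ranks genes by separation of the genotypes, and Gpihbp1, the deleted gene, came first. The groups did not overlap for Gpihbp1, Chordc1, Pim2 and Pknox1, but they did for Sh3bp5l and Cspg4b. Sh3bp5l reached 39.3 CPM in Gpihbp1-/- hearts and was as low as 38.0 CPM in wild-type hearts. For Cspg4b these values were 2.25 and 2.09 CPM.

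Pde11a lies on chromosome 2 and Gpihbp1 on chromosome 15. Of the 5 listed genes on either side of Pde11a in the gene order of GRCm38.p6, 7 were tested. None of the 7 passed in edgeR at an adjusted p of 0.05 or had an unadjusted p under 0.05. Over all tested genes these shares were 0.0312% and 0.904%. Log2 fold changes of the 7 neighbours ran from -0.08 for Prkra to 0.43 for Rbm45. Ttc30a1, the nearest gene before Pde11a, had 0.08 with a standard error of 0.39.

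Pde5a, the cGMP-specific enzyme inhibited by sildenafil, was read 33 to 99 times per heart. It stood at 8.76, 4.99, 5.87 and 5.18 CPM in Gpihbp1-/- hearts 1, 2, 3 and 4 and 5.99, 7.13, 5.94 and 4.64 CPM in wild-type hearts 2, 4, 5 and 6. The groups overlapped, and the log2 fold change was 0.06 (95% interval -0.59 to 0.71). It was -0.15 without Gpihbp1-/- heart 1, -0.05 without wild-type heart 6, 0.17 without wild-type heart 4 and 0.16 without hearts 2 of both groups, so its sign rested on single hearts.

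The calcium- and calmodulin-stimulated members Pde1a and Pde1c differed from each other in pattern. Pde1a stood at 5.66, 16.3, 6.75 and 6.12 CPM in Gpihbp1-/- hearts 1, 2, 3 and 4 and 17.6, 7.41, 5.76 and 6.04 CPM in wild-type hearts 2, 4, 5 and 6. Hearts 2 of both groups were above all others, and they were also the hearts with high summed fibroblast and macrophage markers. The part of those cells in the Pde1a level was not tested. For Pde1a the log2 fold change was -0.08 with all hearts and -0.06 without hearts 2, and it was 0.44 without wild-type heart 2 alone and -0.58 without Gpihbp1-/- heart 2 alone.

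Pde1c stood at 40.7, 33.5, 49.1 and 46.0 CPM in Gpihbp1-/- hearts 1, 2, 3 and 4 and 28.0, 20.0, 49.3 and 30.8 CPM in wild-type hearts 2, 4, 5 and 6. Gpihbp1-/- hearts were above all wild-type hearts but heart 5. On the log2 scale the genotypes differed by 0.40 (95% interval -0.24 to 1.04), the largest positive value among the members, and it was 0.69 without wild-type heart 5 and 0.24 without wild-type heart 4.

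**Figure D4:**
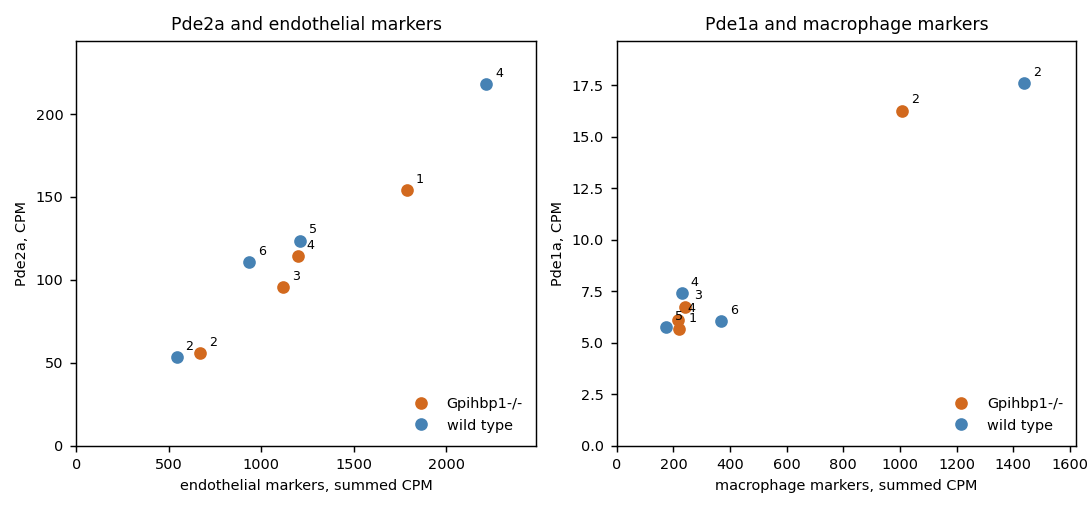
CPM of Pde2a against the summed CPM of 6 endothelial markers (left) and CPM of Pde1a against the summed CPM of 6 macrophage markers (right), 1 point per heart with its number, Gpihbp1-/- in orange and wild type in blue. Pde2a spans 53.3 to 218 CPM along the endothelial sum, and Pde1a is near 6 CPM in most hearts and at 16.3 and 17.6 CPM in hearts 2.

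Pde3a encodes the cGMP-inhibited enzyme that restrains contractility at the sarcoplasmic reticulum and is the target of milrinone. It stood at 43.6, 26.8, 56.5 and 65.5 CPM in Gpihbp1-/- hearts 1, 2, 3 and 4 and 32.7, 37.3, 105 and 54.7 CPM in wild-type hearts 2, 4, 5 and 6. Wild-type heart 5 was the highest, as it was for Pde1c, Pde4d and Pde11a, and hearts 2 were the lowest. Pde3a had a log2 fold change of -0.25 (95% interval -1.18 to 0.67), and of 0.21 without wild-type heart 5.

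The PDE4 genes encode cAMP-specific enzymes sensitive to rolipram. Pde4a stood at 89.0, 61.2, 114 and 112 CPM in Gpihbp1-/- hearts 1, 2, 3 and 4 and 51.8, 146, 121 and 160 CPM in wild-type hearts 2, 4, 5 and 6. Hearts 2 were the lowest in each group, and 3 of 4 wild-type hearts were above every Gpihbp1-/- heart. Pde4a had a log2 fold change of -0.35 (95% interval -1.17 to 0.47), of -0.60 without wild-type heart 2 and of -0.19 without Gpihbp1-/- heart 2.

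Pde4b, which limits cAMP near L-type calcium channels in mouse cardiomyocytes, was the steadiest member, between 34.7 and 48.6 CPM in all hearts. It averaged 37.6 ± 2.43 CPM in Gpihbp1-/- hearts and 42.4 ± 5.54 CPM in wild-type hearts (SD, n = 4 each). The 95% interval of its log2 fold change, -0.58 to 0.23, was the narrowest among the members, so the counts bound a difference in Pde4b more tightly than in any other member. The estimate itself, -0.17, was -0.09 without wild-type heart 4 and -0.27 without wild-type heart 6.

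Pde4d, whose enzyme is found in complexes with the ryanodine receptor and beta-adrenergic receptors, stood at 19.3, 14.8, 36.1 and 33.3 CPM in Gpihbp1-/- hearts 1, 2, 3 and 4 and 15.4, 16.9, 38.6 and 31.2 CPM in wild-type hearts 2, 4, 5 and 6. Each group held a low and a high set of hearts, and the group means of 25.9 and 25.5 CPM in Gpihbp1-/- and wild-type hearts were nearly equal. On the log2 scale they differed by 0.02 (95% interval -0.85 to 0.89), by 0.03 without hearts 2, and by -0.19 to 0.29 when 1 heart was left out. Counts are summed over each gene, so the many isoforms of the PDE4 genes cannot be told apart.

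Pde8a, a high-affinity cAMP-specific enzyme that the inhibitor IBMX does not block, stood at 31.5, 26.1, 32.9 and 31.1 CPM in Gpihbp1-/- hearts 1, 2, 3 and 4 and 20.3, 32.2, 27.0 and 20.2 CPM in wild-type hearts 2, 4, 5 and 6. The ranges overlapped, with 2 of 4 wild-type hearts below every Gpihbp1-/- heart. Pde8a had a log2 fold change of 0.29 (95% interval -0.20 to 0.77). It was 0.44 without wild-type heart 4, 0.18 without wild-type heart 6, and 0.11 without hearts 2 and wild-type heart 6.

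Hearts 2 of both groups lay outside the range of the other 6 hearts for 5 of 10 members, beside 38.6% of all tested genes. Both were below the other 6 hearts for 4 of 10 members, Pde2a, Pde3a, Pde4a and Pde4d, and both were above them for 1, Pde1a; over all tested genes the shares were 16.4% below and 22.2% above. Among the 9 other tested genes of the family, Pde4c and Pde7a were below and Pde1b and Pde3b above. The sum of the 8 cardiomyocyte markers was also lowest in these hearts, at 37110 CPM in Gpihbp1-/- heart 2 and 38630 CPM in wild-type heart 2, against 53040 or more elsewhere, and its part in the lower levels was not tested. Singly, Myh6, Tnni3, Myl2, Ttn and Pln were lowest in both of these hearts, whereas Actc1, Tnnt2 and Ryr2 were not. Actc1 was 14250 CPM in Gpihbp1-/- heart 2 and 13810 CPM in wild-type heart 2, against 8150 CPM in wild-type heart 4.

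**Figure D5:**
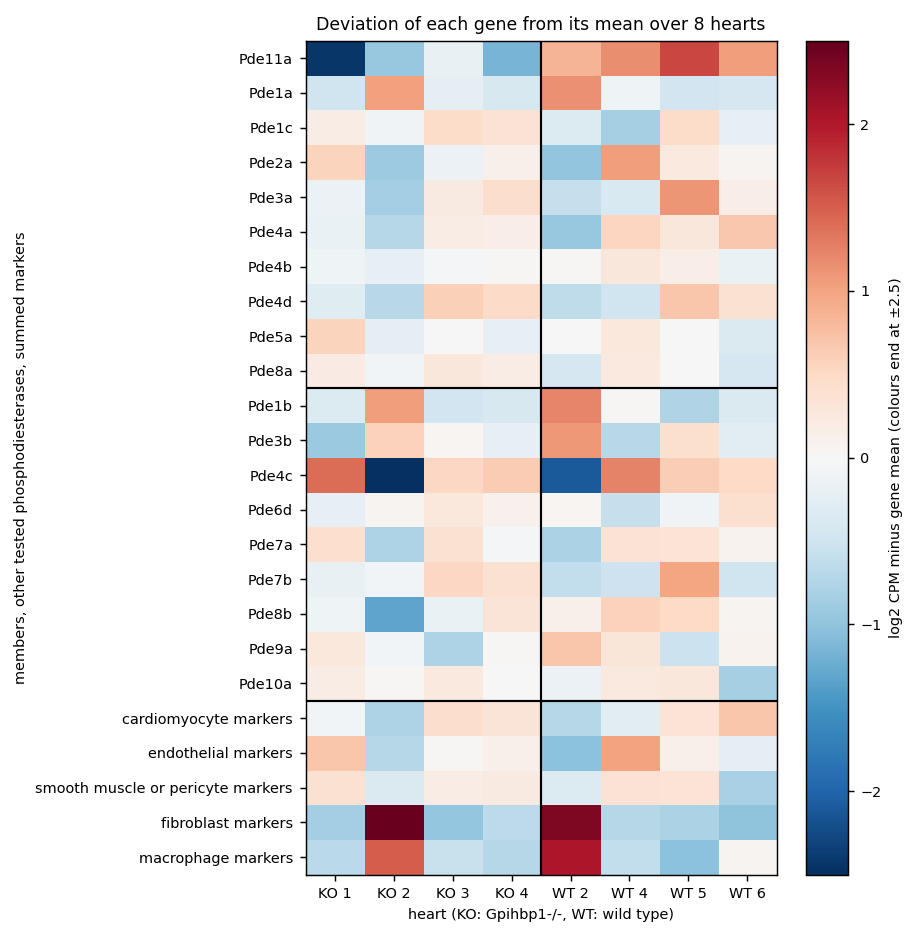
Log2 CPM of each gene minus its mean over the 8 hearts (red above, blue below), for the members (top), the other tested phosphodiesterases (middle) and the summed markers of 5 cell types (bottom), Gpihbp1-/- hearts left of wild-type hearts. Pde11a is split by genotype, whereas Pde1a, Pde2a, Pde4c and the fibroblast and macrophage markers set hearts 2 of both groups apart from the other 6.

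The rest of the family was taken from a fixed list of 14 genes, of which 13 were listed and 9 tested; the list goes by name and so includes Pde6d, which encodes a prenyl-binding subunit. None passed in edgeR or in DESeq2, and 0 had an unadjusted p under 0.05, beside 0.904% of all tested genes. The median log2 fold change was 0.01, with 5 positive and 4 negative. Pde8b, a close relative of Pde8a, had the smallest unadjusted p, 0.176, with a log2 fold change of -0.54 and 3.98 ± 1.61 CPM in Gpihbp1-/- hearts against 5.78 ± 1.03 CPM in wild-type hearts (SD, n = 4 each). Pde9a, a cGMP-specific enzyme, had -0.29 (95% interval -1.11 to 0.52) with all hearts and -0.08 without hearts 2.

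Pde4c had the widest spread of these genes, at 25.0, 1.38, 13.7 and 14.9 CPM in Gpihbp1-/- hearts 1, 2, 3 and 4 and 2.23, 22.4, 14.6 and 13.5 CPM in wild-type hearts 2, 4, 5 and 6. Hearts 2 of both groups were far below the others, and the log2 fold change was 0.06. Pde1b stood at 4.42, 11.55, 4.01 and 4.24 CPM in the Gpihbp1-/- hearts and 13.03, 5.70, 3.32 and 4.36 CPM in the wild-type hearts, which is the pattern of Pde1a. Log2 fold changes were -0.32 for Pde3b, the relative of Pde3a known from adipose tissue and liver, 0.01 for Pde7a, 0.17 for Pde7b, 0.16 for Pde10a and 0.08 for Pde6d, and the 95% intervals of these 5 genes contained 0. Without hearts 2 the values were -0.18 for Pde3b and 0.08 for Pde7b, and that of Pde1b was -0.08, against -0.13 with all hearts.

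The remaining genes of the cAMP and cGMP pathways were followed through 8 further fixed lists. With the 9 tested phosphodiesterases they made 104 tested genes, of which none passed in edgeR or DESeq2 and 0 had an unadjusted p under 0.05, where 0.904% of all tested genes did. Their median log2 fold change was -0.02, with 47 positive and 57 negative.

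Upstream of cAMP, 0 of 18 receptor, G protein and desensitisation genes passed; the adenosine receptor Adora1 had 0.55 and the muscarinic receptor Chrm2 had 0.47, both with standard errors above 0.40, and Adora1 had 0.32 without hearts 2. Of the adenylyl cyclases 7 were tested and 0 passed, with Adcy9 at 0.17 and Adcy7 at -0.29, or 0.10 and -0.17 without hearts 2. For cGMP synthesis 0 of 8 passed, and the soluble guanylyl cyclase subunits Gucy1b1 and Gucy1a2 had 0.28 and 0.31.

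Downstream, 0 of 17 effectors passed, with the protein kinase A regulatory subunit Prkar1b at -0.51 and the pacemaker channel Hcn2 at 0.53. Among anchors and scaffolds 0 of 17 passed, with Rack1 at -0.74 and the muscle caveolin Cav3 at -0.65. Of 13 protein kinase A substrates and regulators and 13 CREB-related genes, 0 and 0 passed; the inhibitor Ppp1r1a had -0.72, the clock gene Per1 0.49 and Crem, which encodes the cAMP-induced repressor ICER, -0.33. The efflux transporters Abcc4 and Abcc5 had 0.13 and -0.08, and Abcc4 had 0.05 without hearts 2. A missed threshold with 4 hearts a group does not show that the genotypes are alike: the Per1 interval, for example, ran from -0.18 to 1.16.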

How the data were processed

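Heart RNA from 4 Gpihbp1-/- and 4 wild-type mice was analysed from the 1 table the authors deposited. Per the labels' protocols, polyadenylated RNA gave strand-specific paired-end libraries; the paragraph that says so names rat tissue, while every sample is labelled mouse. HISAT, Bowtie2 and the build GRCm39 are listed in the submitters' processing notes, with no version or role, and what counted the reads is unstated there. Per the file headers the authors deposited read counts, TPM and FPKM for each library. The deposited counts are estimated counts, since 4.32% to 5.89% of the values were not whole. A further 8 per-sample columns were empty and not used.

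Groups and heart numbers were read from the titles. Estimated counts were then rounded and filtered with filterByExpr (minimum count 10, minimum total 15), which kept 12826 genes. They were fitted with edgeR 4.0.16 in R 4.3.3, using TMM scaling and the robust quasi-likelihood test, with Benjamini-Hochberg adjustment at 0.05; DESeq2 1.42.0 was an alternative. Standard errors are the log2 fold change over the root of F. The fit was tested on simulated data. The biological coefficient of variation came to 43.7%. No 2 libraries of a group agreed within sampling noise (chi-square per degree of freedom at least 7.29).

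Named genes were all members, Gpihbp1, the listed phosphodiesterases, in each pathway list the 2 genes with the smallest p, the 6 genes most like Pde11a and like the most variable other member, and defining markers; other names were chosen after their values were seen. The members and lists were chosen with earlier results of these data known. Promoter windows are of GRCm38.p6, another build than the counts, and were used for sequence alone. Alternatives were other scalings, filters, tools and units, each heart left out, and heart number as a block; fits without hearts 2, and without wild-type heart 6 as well, were added after seeing the data.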

Additional observations from a re-analysis of the deposited data

Results flagged for a closer look

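In groups of 4 hearts, a value was singled out when its gap to the nearest other heart, divided by the range of the group, exceeded Dixon's 95% critical value. Of 39 groups examined over the members, the other tested phosphodiesterases and wild-type Gpihbp1, 4 held such a value. The critical value is set so that about 1 in 20 groups of independent, normally distributed values would. These groups share the same hearts, so that rate does not apply to them directly. Pde1a stood apart at 16.3 CPM in Gpihbp1-/- heart 2 and at 17.6 CPM in wild-type heart 2. Pde1b stood apart at 11.55 CPM in Gpihbp1-/- heart 2. Pde7b stood apart at 32.6 CPM in wild-type heart 5, with 10.7, 11.4 and 11.7 CPM in wild-type hearts 2, 4 and 6.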

How the results depend on the processing

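The log2 fold change of Pde11a was negative in all 18 alternatives, from -2.57 to -1.92 when 1 heart was left out. It was -1.44 when taken from TPM with a pseudocount of 0.1, a scale that understates changes of low genes and on which the median of all genes moved by 0.34; library totals moved that median by 0.10. Its adjusted p was under 0.05 in DESeq2 and with the replicate block (0.0167), and from 0.758 to 0.99997 when 1 heart was left out. The number of genes called was 4 in the main comparison, 8 in DESeq2 and 2 to 3 when 1 heart was left out. Over the members, 4 of 180 recomputed values moved by 1 SD or more: those of Pde11a, Pde4b (0.13) and Pde8a (0.63) on TPM and of Pde5a (-0.36) with the block. The median FPKM kept the place of 8 of 10 members in the order of levels.

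Numbers 2 and 4 occur in both groups, but the labels do not say that a number marks a shared animal, litter or day. Deviations of same-numbered hearts from their group means correlated at 0.91 for number 2 and 0.11 for number 4. With the number as a replicate block, 168 genes were called, 7 of them in the pathway lists (Adora1, Adrb1, Chrm2, Fos, Hcn4, Nr4a1 and Nr4a3), from 1 residual degree of freedom. With 4 to 69 Pde11a reads per heart, depth limits its precision.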

Other observations

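Phosphodiesterases of the photoreceptor type were near the detection limit. Pde6a was read 0, 0, 0 and 1 times in Gpihbp1-/- hearts 1, 2, 3 and 4 and 2, 4, 5 and 0 times in wild-type hearts 2, 4, 5 and 6. Pde6g, the inhibitory gamma subunit, was read 6, 7, 2 and 5 times in the Gpihbp1-/- hearts and 8, 8, 10 and 5 times in the wild-type hearts; both genes were below the filter and were not tested. Pde6d, which encodes the prenyl-binding delta subunit and is counted by name among the tested genes of the family, was at 29.6 to 40.9 CPM in Gpihbp1-/- hearts and 23.0 to 45.2 CPM in wild-type hearts.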
